A study of Mus musculus with 12 samples.

Results

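The genes of glucose uptake, glycolysis, lactate exchange and pyruvate oxidation were examined in the hippocampus of USF-1 KO mice, among them Pgam2, which encodes the muscle form of phosphoglycerate mutase. The 37 genes were selected by name, with their measured values in view: Pgam2 was included because it was higher in USF-1 KO than in WT mice, and the rest of the pathway was included for comparison with it. All 37 were found in the table of 55487 genes and filled 38 rows, since Aldoa is entered under a pair of gene identifiers. All 38 rows reached the mean of at least 10 normalised counts required for testing, as did 18221 rows of the whole table. Hippocampal RNA of 6 WT mice (4 females and 2 males) and 6 USF-1 KO mice (2 females and 4 males) was sequenced, with 1 library per mouse. The sexes are those of the sample labels, and the study's own description divides the sexes differently, so that every value that uses sex rests on the labels. All mice were of strain C57Bl/6JRccHsd, 3 to 4 months old and untreated as far as the labels say. Both genotypes came from breeding of heterozygous USF-1 deficient mice. The deletion is present throughout the body, so that a difference in the hippocampus cannot be assigned to a cell type or to the brain itself. The comparison asks how the absence of the transcription factor USF-1 alters hippocampal transcripts.

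Glucose enters the brain through the transporters GLUT1 (Slc2a1) of the blood-brain barrier and astrocytes and GLUT3 (Slc2a3) of neurons, is trapped by hexokinase and is split by the glycolytic enzymes into pyruvate. Pyruvate is either reduced to lactate, which monocarboxylate transporters carry between cells, or imported into mitochondria, where pyruvate dehydrogenase commits it to the citrate cycle under the control of inhibitory kinases. Phosphoglycerate mutase moves the phosphate group of phosphoglycerate just before the enolase step; Pgam1 encodes the form found in brain and most tissues and Pgam2 the form of skeletal muscle, heart and sperm.

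The values are read counts on each gene divided by 1 size factor per library, called normalised read counts here. Between 21679622 and 32091173 reads per mouse fell on genes. Usf1 itself had 842 to 1583 normalised reads in WT mice and 117 to 163 in KO mice, so it separated the KO from the WT labels. WT m493 was the lowest of the WT mice, and the other 5 had at least 1425. Usf1 therefore does not check the label of WT m493 against a heterozygous mouse. Whether WT m493 was heterozygous was not tested, and its label was used as given. Libraries WT m490 and WT m493 stood apart by genes of the choroid plexus, the epithelium that secretes cerebrospinal fluid. Transthyretin (Ttr) reached 52017 and 149554 normalised reads in them and between 139 and 1530 in the other 10 mice, so values without both libraries are given beside the results that they moved. Markers of oligodendrocytes, the myelin-forming cells, gave a summed count of 86509 to 187372 in WT and 74528 to 113928 in KO mice, with 8 of 8 markers lower in KO and 0 past the threshold by limma (adjusted p between 0.0722 and 0.129) or edgeR, 8 by DESeq2 and 8 at an unadjusted p under 0.05. Of all 18221 tested genes, 164 passed by limma, 151 by edgeR and 616 by DESeq2. An unadjusted p under 0.05 was found in 7.6% with lower and 5.92% with higher values in KO. These values are the background for the counts of all lists below. In whole tissue, fewer cells of a type and less RNA per cell cannot be told apart.

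Pgam2 (ENSMUSG00000020475, chromosome 11, 5801640 to 5803733 on the reverse strand, GRCm38) was the member that differed most between the genotypes. The 6 WT mice had between 126 and 172 normalised reads, with a median of 146, and the 6 KO mice had between 219 and 305, with a median of 252. Every KO mouse lay above the highest WT mouse, and the gap between the groups was 47.4 normalised reads. The means were 146 ± 17.7 in WT and 258 ± 40.2 in KO mice (SD, n = 6 each), a 1.77-fold difference. On the log2(normalised count + 1) scale the difference was 0.81 (95% interval 0.58 to 1.05), given as a description since this contrast was used in choosing the gene. Between 134 and 274 reads per library lay behind these values. Without WT m490 and WT m493 the log2 difference was 0.79.

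Pgam1 (ENSMUSG00000011752), which encodes the enzyme of the same reaction in brain, did not share this pattern. WT mice had 2197 to 2534 normalised reads with a median of 2314, and KO mice had 2138 to 2520 with a median of 2305. The groups overlapped nearly completely, and the log2 fold change was −0.01 (95% interval −0.11 to 0.09, adjusted p = 0.973 by limma). The log2 fold change of Pgam2 exceeded that of Pgam1 by 0.82 (SE 0.14 from the ratios of the 2 genes in each mouse). Bpgm, whose enzyme makes 2,3-bisphosphoglycerate, a regulator of haemoglobin, ranged from 1257 to 1525 in WT and from 1195 to 1329 in KO mice, a log2 fold change of −0.15 (SE 0.06, adjusted p = 0.254) that did not pass the threshold.

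**Figure D1:**
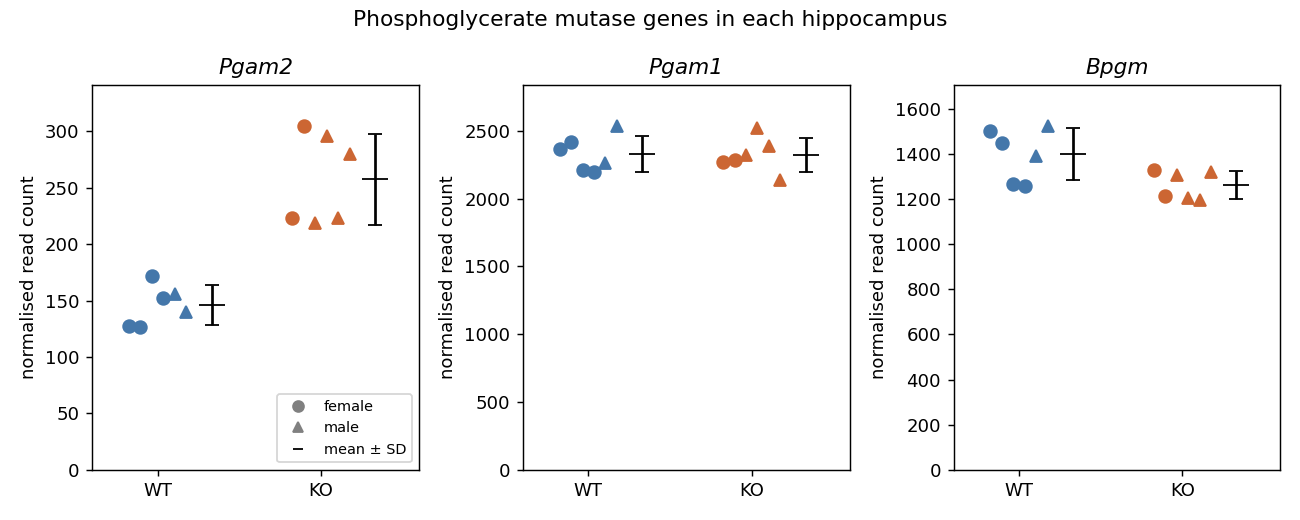
Normalised read counts of Pgam2, Pgam1 and Bpgm in each mouse, with circles for females, triangles for males and bars for the mean ± SD of 6 mice; each vertical axis starts at 0. The 6 KO mice lie at 219 or more for Pgam2, above the 172 of the highest WT mouse, whereas the genotypes overlap for Pgam1 and Bpgm.

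Per kilobase of exon, a scale that allows levels of different genes to be set side by side, Pgam2 had 173 ± 21.1 normalised reads in WT and 307 ± 47.9 in KO mice (SD, n = 6 each). Pgam1 had 1176 ± 66.3 and 1172 ± 64.4 on the same scale. The share of Pgam2 in the sum of both genes per kilobase was therefore between 11.0% and 15.5% in WT mice and between 18.0% and 23.9% in KO mice. Of the stretches of 75 bases in Pgam1 transcripts, 34.9% also occurred in other genes, against 0% for Pgam2. Any Pgam1 reads lost to these genes would raise the share of Pgam2, and the size of such a loss was not tested. Pgam1 remained the more abundant transcript in each of the 12 mice. Pgam2 ranked 30th of the 38 rows by WT level, close to Pdk1 (191) and Pfkfb3 (144 normalised reads per kilobase), from whose ranges over WT mice it was not separated.

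The Pgam2 values were also read by sex, as a description. In females the 4 WT mice averaged 144 ± 21.8 and the 2 KO mice 264 ± 57.8 normalised reads. In males the 2 WT mice averaged 148 ± 11.2 and the 4 KO mice 255 ± 39.3 (SD). Females differed from males by a log2 value of 0.00 (SE 0.12) with genotype in the fit.

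Pgam2 is best known from skeletal muscle, so lists of muscle genes were read beside it. Of 14 skeletal muscle genes, Pgam2 itself not among them, 9 could be tested. The summed count was 264 to 410 normalised reads in WT and 240 to 348 in KO mice, and 0 of the 9 passed the threshold (adjusted p from 0.606 to 0.972 by limma, with 0 by edgeR, 0 by DESeq2 and 0 at an unadjusted p under 0.05). The creatine kinase gene Ckm, a defining marker of muscle fibres, had 0 reads in all WT mice and at most 1.21 normalised reads in a KO mouse. The skeletal actin Acta1 averaged 160 and 156 normalised reads in WT and KO mice, the highest of the list. The myosins Myh1, Myh2, Myh4, Myl1 and Mylpf averaged between 8.51 and 17.5 normalised reads in either genotype, as did the calcium pump gene Atp2a1. Actn3 averaged 32.7 and 31.0 and Tcap 25.8 and 18.1 in WT and KO mice, whereas the troponins Tnnt3, Tnnc2 and Tnni2 and myoglobin (Mb) averaged at most 5.71. The 8 genes of heart and smooth muscle summed to 486 to 838 normalised reads in WT and 621 to 1042 in KO mice, overlapping but with 4 of the 6 tested genes higher in KO and a median log2 fold change of 0.38. None of the 6 passed by limma (adjusted p from 0.302 to 0.904), with 0 by edgeR, 0 by DESeq2 and 1 at an unadjusted p under 0.05. The smooth muscle genes Myh11 (185 and 236 normalised reads in WT and KO), Acta2 (213 and 275) and Tagln (91.4 and 121) gave log2 fold changes of 0.37, 0.39 and 0.46, while the cardiac genes Myh6 and Tnnt2 gave −0.13 and −0.21, and Tnni3, with means of 10.6 and 14.3, 0.44. The cardiac actin Actc1 averaged 0.286 and 0.136 normalised reads and, like Cnn1, was not tested. The part of smooth muscle in the Pgam2 result was not tested.

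Oligodendrocyte markers moved with the genotype as described above and their part in the Pgam2 result was not tested. WT m522 had an oligodendrocyte sum of 86509, inside the range of the KO mice, and 152 normalised reads of Pgam2, inside the range of the other WT mice. These are the values of 1 mouse, and nothing is read from them. Markers of microglia, the resident macrophages of the brain, summed to 7007 to 9694 in WT and 6523 to 7421 in KO mice, with 7 of 7 lower in KO, a median log2 fold change of −0.21, 0 past the threshold by limma (adjusted p from 0.115 to 0.577) or edgeR, 1 by DESeq2 and 5 at an unadjusted p under 0.05. Markers of excitatory neurons summed to 179842 to 225697 in WT and 171101 to 252637 in KO mice. Of these, 7 of 8 were higher in KO, with a median of 0.14 and 0 past the threshold by limma, edgeR or DESeq2. The 1 at an unadjusted p under 0.05 was Rbfox3 (log2 fold change 0.19), which is not specific to excitatory neurons. Markers of inhibitory neurons and endothelium had medians of −0.03 and 0.03, with 0 past the threshold by limma, edgeR or DESeq2 and 0 at an unadjusted p under 0.05. The part of these cell types in the member values was likewise not tested. Red blood cell genes (Hba-a1, Hba-a2, Hbb-bs, Hbb-bt and Alas2) summed to 2177 to 4444 in WT and 2601 to 7780 in KO mice, with 5 of 5 higher in KO 0 past the threshold by limma (adjusted p from 0.254 to 0.521), edgeR or DESeq2, and 2 at an unadjusted p under 0.05.

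The chromosomal surroundings of Pgam2 were examined next, since overlapping or adjoining genes can share reads in counting that ignores strand. No other gene in the annotation overlapped Pgam2. Of the 9 genes examined within 100 kb, 8 could be tested and 0 passed the threshold by limma, nor did any of the 7 to which DESeq2 gave an adjusted p, with 2 at an unadjusted p under 0.05. The nearest gene, Dbnl, which encodes an actin-binding adaptor, ends 0.678 kb away on the opposite strand and averaged 1913 ± 71.9 in WT and 1877 ± 41.1 normalised reads in KO mice (log2 fold change −0.03, adjusted p = 0.772). On the side of the Pgam2 start, Gm11966 (15.4 and 21.3 normalised reads, log2 fold change 0.49, adjusted p = 0.276) and Polm (223 and 262, 0.24, adjusted p = 0.198) were the 2 with the unadjusted p under 0.05, both with positive values. Mrps24, Urgcp, Ube2d-ps, Aebp1 and Pold2 gave log2 fold changes from −0.03 to 0.20 with adjusted p of at least 0.498, and Myl7, a cardiac myosin light chain, averaged 1.02 and 1.21 normalised reads and was not tested.

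**Figure D2:**
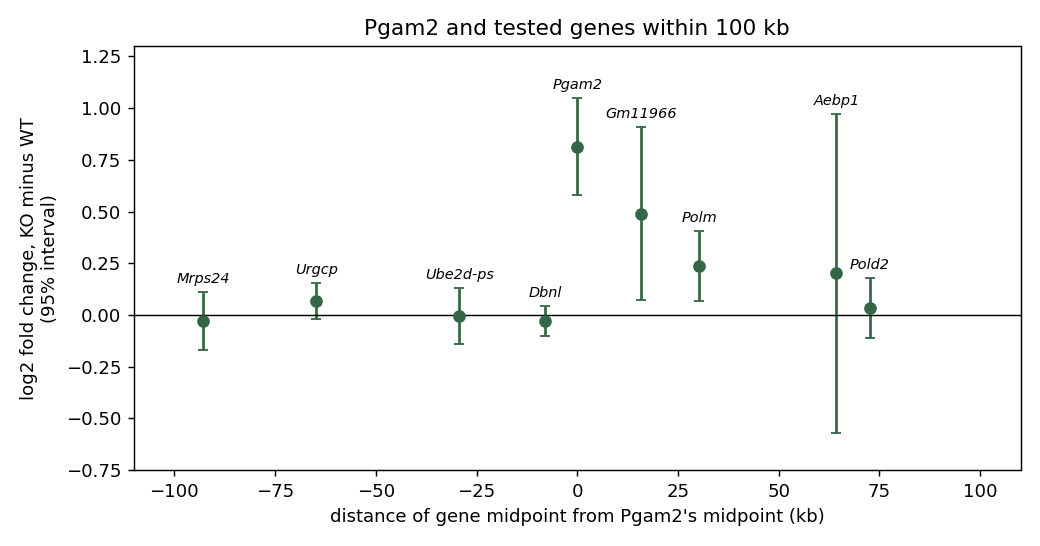
Log2 fold change (KO minus WT) of Pgam2 and 8 tested genes within 100 kb, plotted against the distance of each gene's midpoint from that of Pgam2 in kb; bars are 95% intervals from limma. Pgam2 stands at 0.81, and Dbnl, the nearest gene, at −0.03.

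USF-1 binds the E-box CACGTG, so the letters were searched in the 300 bases around gene starts (250 before and 50 after) given by RefSeq for GRCm38.p6. The palindrome CACGTG reads the same on both strands. It was found in at least 1 promoter of 6 of the 35 members that could be matched (17.1%), against 8.09% of all genes with a promoter and 11.2% of the 12147 tested genes with a promoter. Counted by promoter, 6 of the 52 member promoters (11.5%) held it, against 7.15% of all 32851. Slc2a3 and Slc16a7 were not matched. Pgam2 and Pgam1 held no CACGTG. Their windows are shown because they are the genes set against each other above. Capitals mark CANNTG, the general form of the E-box, in Pgam2, and ACGTG (the core of CACGTG, searched on both strands) in Pgam1.
Pgam2 (chr11:5803747-5804046, reverse strand): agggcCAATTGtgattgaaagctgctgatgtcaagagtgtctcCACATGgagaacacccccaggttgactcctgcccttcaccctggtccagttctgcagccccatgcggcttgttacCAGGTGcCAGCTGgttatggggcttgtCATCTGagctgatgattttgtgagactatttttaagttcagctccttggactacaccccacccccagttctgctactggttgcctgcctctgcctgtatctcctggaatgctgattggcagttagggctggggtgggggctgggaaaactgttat
Pgam1 (chr19:41911621-41911920, forward strand): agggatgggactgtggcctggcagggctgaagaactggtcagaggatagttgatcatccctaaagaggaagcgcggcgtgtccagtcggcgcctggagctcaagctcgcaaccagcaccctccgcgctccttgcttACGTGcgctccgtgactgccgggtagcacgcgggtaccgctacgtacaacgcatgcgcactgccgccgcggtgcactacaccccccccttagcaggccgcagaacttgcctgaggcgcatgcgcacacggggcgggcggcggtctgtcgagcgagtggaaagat
The Pgam2 window held 5 CANNTG and 0 ACGTG on either strand, and the Pgam1 window 0 CANNTG and 1 ACGTG. All 5 CANNTG lay between 105 and 245 bases before the RefSeq start of Pgam2. That start differs from the one in the gene span given above. The windows of Pgam2 and Pgam1 both lie wholly upstream of the gene spans used for counting. The general E-box CANNTG was present in 67.3% of member promoters and 72.3% of all promoters. The core ACGTG was present in 42.3% of member promoters and 19.6% of all promoters. ACGTG is only a part of CACGTG and is not specific to USF-1, so its share does not count sites of USF-1. Counted by gene, CANNTG was in 25 and ACGTG in 18 of the 35 matched members (71.4% and 51.4%). Among tested genes with a promoter the shares were 68.2% and 28.1%. CANNTG includes CACGTG and was chosen after the Pgam2 window had been seen. The absence of these letters says only that they were not in these windows.

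The 7 CACGTG of the 6 other members are shown in stretches of 40 bases, with the E-box in capitals, to be set beside the expression values that follow.
Pfkfb2 (chr1:130715821-130715860, reverse strand): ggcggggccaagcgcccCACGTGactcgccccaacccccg
Pfkfb3 (chr2:11502121-11502160, reverse strand): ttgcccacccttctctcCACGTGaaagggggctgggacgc
Slc16a1 (chr3:104638447-104638486, forward strand): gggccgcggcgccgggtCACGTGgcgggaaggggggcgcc
Ldha (chr7:46845642-46845681, forward strand): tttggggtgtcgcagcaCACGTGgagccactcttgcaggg
Ldha (chr7:46845739-46845778, forward strand): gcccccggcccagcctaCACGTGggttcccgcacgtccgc
Pdk2 (chr11:95041475-95041514, reverse strand): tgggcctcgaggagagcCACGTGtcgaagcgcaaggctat
Pfkm (chr15:98092436-98092475, forward strand): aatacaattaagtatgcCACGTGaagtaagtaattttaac
The E-boxes lay between 22 and 200 bases before the RefSeq starts of Pfkfb2, Pfkfb3, Slc16a1, Ldha, Pdk2 and Pfkm. None of these 6 genes passed the threshold between the genotypes, and their log2 fold changes ranged from −0.15 for Pfkfb3 to 0.02 for Pfkm.

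Across the pathway, 1 of the 38 rows passed the threshold of an adjusted p under 0.05 by limma, namely Pgam2, against 0.9% of the genes tested in the whole table in either direction, 0.159% with higher values in KO and 0.741% with lower values. Because Pgam2 was chosen on this contrast, nothing is read from that count. Of the other 37 rows, 0 passed by limma, 0 by edgeR and 0 by DESeq2, and the lowest adjusted p by limma was 0.169. At an unadjusted p under 0.05 there were 5 rows lower and 1 higher in KO, where 7.6% and 5.92% of all tested genes lay lower and higher. Groups without overlap were seen in 1 of the 38 rows, again Pgam2, and in 1.5% of all tested genes. The median log2 fold change of the 37 rows was −0.04, beside 0.00 over all tested genes and 0.01 over the 7996 genes with a mean above 500, with 25 rows below 0 and 12 above. The 95% interval stayed within a change of 20% in either direction in 33 of the 37 rows. The highest upper limit was 0.70, for the minor Aldoa entry, which lies inside the Pgam2 interval of 0.58 to 1.05. Without WT m490 and WT m493, 0 of the 37 rows passed (lowest adjusted p 0.478 by limma), and 18 of the 37 log2 fold changes changed sign or moved by over 1.5 times. Of these, 12 were under 0.06 in size with and without both libraries, and the others went from −0.15 to −0.22 in Pfkfb3, from −0.07 to −0.11 in Hk2, from −0.05 to −0.08 in Tigar, from −0.05 to −0.08 in Ldha, from −0.09 to −0.04 in Ldhb and from 0.09 to 0.04 in Slc16a7.

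**Figure D3:**
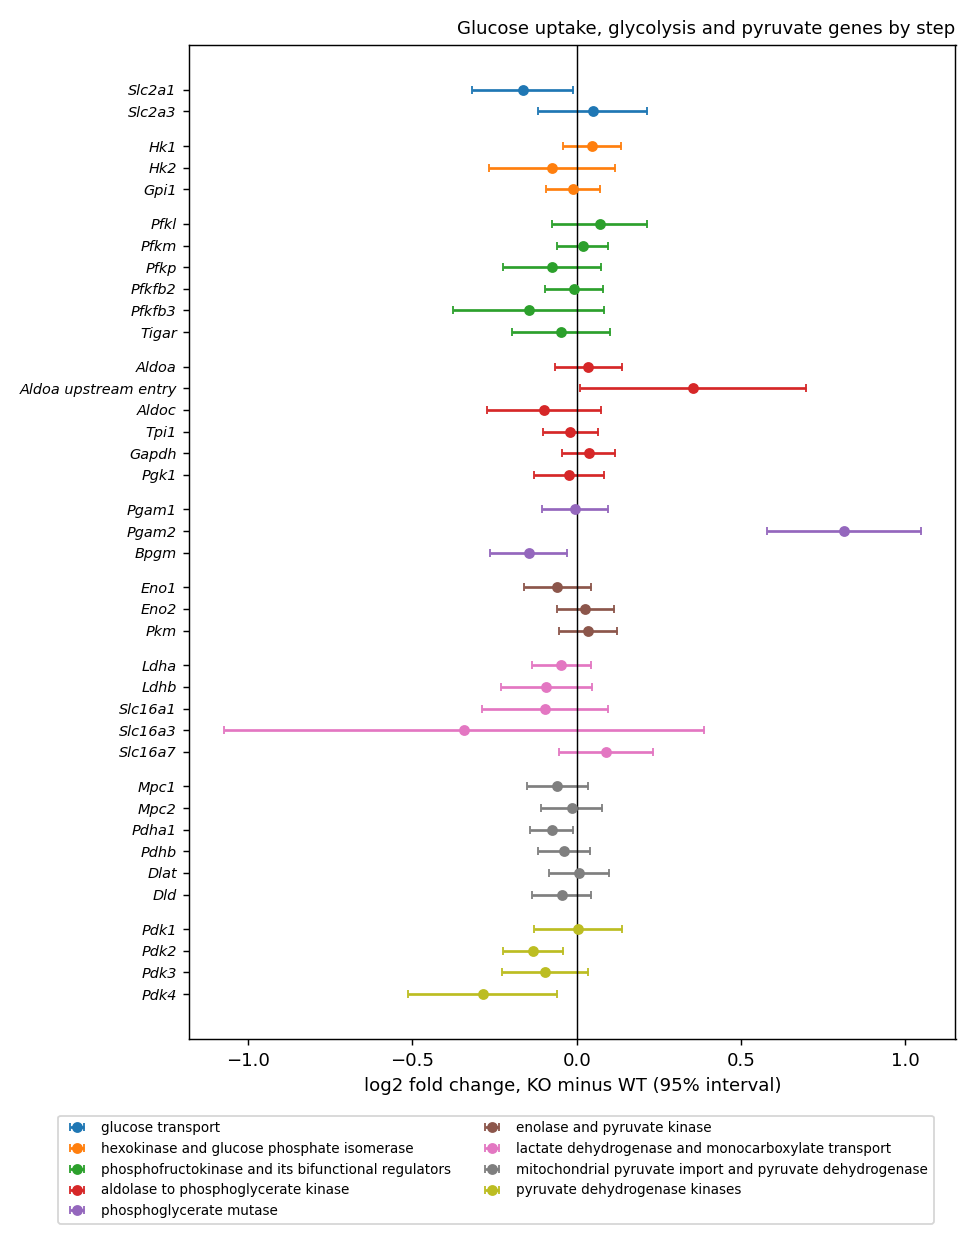
Log2 fold change (KO minus WT) of each of the 38 rows with its 95% interval from limma, coloured by step of the pathway; the row marked upstream entry is the minor Aldoa entry. Pgam2 at 0.81 is the only row whose interval lies wholly above 0.5, and Slc16a3 has the widest interval, from −1.07 to 0.39.

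At the entry of glucose, Slc2a1 had 1439 to 1810 normalised reads in WT (median 1666) and 1268 to 1644 in KO mice (median 1454). The groups overlapped, and the log2 fold change of −0.16 (SE 0.07) did not pass the threshold (adjusted p = 0.334 by limma) and was −0.12 without WT m490 and WT m493. Slc2a3 had 2787 to 4135 in WT (median 3128) and 2973 to 3502 in KO mice (median 3398), a log2 fold change of 0.05 (adjusted p = 0.827). Per kilobase, both transporters were present at similar levels in WT mice, 468 for Slc2a1 and 447 for Slc2a3, and Slc2a1 made up 44.6% to 53.7% of their sum in WT and 44.6% to 51.2% in KO mice.

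Hexokinase, which phosphorylates glucose, came almost wholly from Hk1, with 98.2% ± 0.185 of the hexokinase sum per kilobase in WT and 98.3% ± 0.169 in KO mice (SD, n = 6 each), the rest being Hk2, the insulin-responsive form. Their log2 fold changes were 0.05 for Hk1 and −0.07 for Hk2 (adjusted p 0.675 and 0.768). Gpi1, whose enzyme converts glucose 6-phosphate to fructose 6-phosphate, gave −0.01 with means of 14946 and 14850.3 normalised reads.

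The phosphofructokinases catalyse the committed step of glycolysis. Pfkm was the main form, with 66.6% of the sum per kilobase in WT and 66.3% in KO mice, followed by Pfkl with 24.7% and 25.6% and Pfkp with 8.70% and 8.11%. The log2 fold changes were 0.02, 0.07 and −0.08 in the same order (adjusted p from 0.688 to 0.871). Among the genes that set the regulator fructose 2,6-bisphosphate, Pfkfb3, an activator of glycolysis prominent in astrocytes, ranged from 814 to 1272 in WT (median 1108) and from 832 to 1133 in KO mice (median 970), a log2 fold change of −0.15 (SE 0.11, adjusted p = 0.592). Pfkfb2 gave −0.01, and Tigar, whose enzyme removes fructose 2,6-bisphosphate, −0.05.

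The steps from aldolase to phosphoglycerate kinase split the sugar and make the first ATP. Aldoa, per kilobase the highest of all members, had 15576 ± 374 normalised reads in WT and 15987 ± 937 in KO mice (SD, n = 6 each). Aldoc, the astrocyte-enriched aldolase, had 5540 ± 617 and 5168 ± 551 on the same scale, with a log2 fold change of −0.10 (adjusted p = 0.642). Tpi1, Gapdh and Pgk1, for triose phosphate isomerase, glyceraldehyde phosphate dehydrogenase and phosphoglycerate kinase, gave log2 fold changes of −0.02, 0.04 and −0.02, each with an SE of at most 0.05. The second Aldoa entry (ENSMUSG00000114515), which starts upstream of the main gene on the same strand, had 27.7 to 39.3 normalised reads in WT and 31.7 to 59.4 in KO mice, a log2 fold change of 0.36 (SE 0.16, adjusted p = 0.350). This entry shared no stretch of 75 bases with transcripts of other genes in GENCODE M21.

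Below the mutase step, the neuronal enolase Eno2 made up 66.6% of the enolase sum per kilobase in WT and 67.9% in KO mice, the rest being the general form Eno1. Eno1 had 12515 to 13667 normalised reads in WT and 11504 to 13680 in KO mice, and the log2 fold change was −0.06 (adjusted p = 0.636), while Eno2 gave 0.03. Pkm, for pyruvate kinase, averaged 26265 ± 589 and 26948 ± 1293 normalised reads, a log2 fold change of 0.04 (adjusted p = 0.755).

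Of the lactate dehydrogenase transcripts per kilobase, 73.3% came from Ldhb and 26.7% from Ldha in WT mice, and 72.8% and 27.2% in KO mice. Their log2 fold changes were −0.09 and −0.05 (adjusted p 0.575 and 0.676). Among the lactate carriers, Slc16a1 (MCT1), found in endothelium and glia, gave −0.10 and Slc16a7 (MCT2), the neuronal form, 0.09. Slc16a3 (MCT4), the astrocyte form for lactate release, was the lowest member per kilobase with 11.3 normalised reads in WT and 9.24 in KO mice. It was also the most variable: the counts ran from 29.6 to 86.2 in WT and from 20.6 to 81.4 in KO mice. Its log2 fold change of −0.34 had an SE of 0.34, so that a change of this gene in either direction could not be resolved.

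At the mitochondrial entry, the carrier subunits Mpc1 and Mpc2 gave log2 fold changes of −0.06 and −0.02. Pdha1, the catalytic subunit of pyruvate dehydrogenase, had 5275 to 5657 normalised reads in WT (median 5508) and 5081 to 5463 in KO mice (median 5165). Only KO m488 lay within the WT range, and the log2 fold change was −0.08 (SE 0.03, adjusted p = 0.280 by limma and 0.106 by DESeq2). Pdhb, Dlat and Dld, for the partner subunit and the other catalytic components, gave −0.04, 0.01 and −0.05 (adjusted p from 0.684 to 0.960).

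The pyruvate dehydrogenase kinases switch the complex off. Pdk2, with 64.9% of the kinase sum per kilobase in WT mice the main form, had 2934 to 3163 normalised reads in WT (median 3034) and 2528 to 3027 in KO mice (median 2818). Of the KO mice, KO m482 alone lay within the WT range. The log2 fold change of −0.13 (SE 0.04) had the lowest adjusted p of the members besides Pgam2, 0.169 by limma, 0.160 by edgeR and 0.0697 by DESeq2, and did not pass in any of them. Pdk4, the form induced by fasting, had 208 to 307 normalised reads in WT (median 259) and 183 to 236 in KO mice (median 219), a log2 fold change of −0.29 (SE 0.11, adjusted p = 0.242) that was −0.19 without WT m490 and WT m493. Pdk1 and Pdk3 gave 0.00 and −0.10 (adjusted p 0.990 and 0.522).

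**Figure D4:**
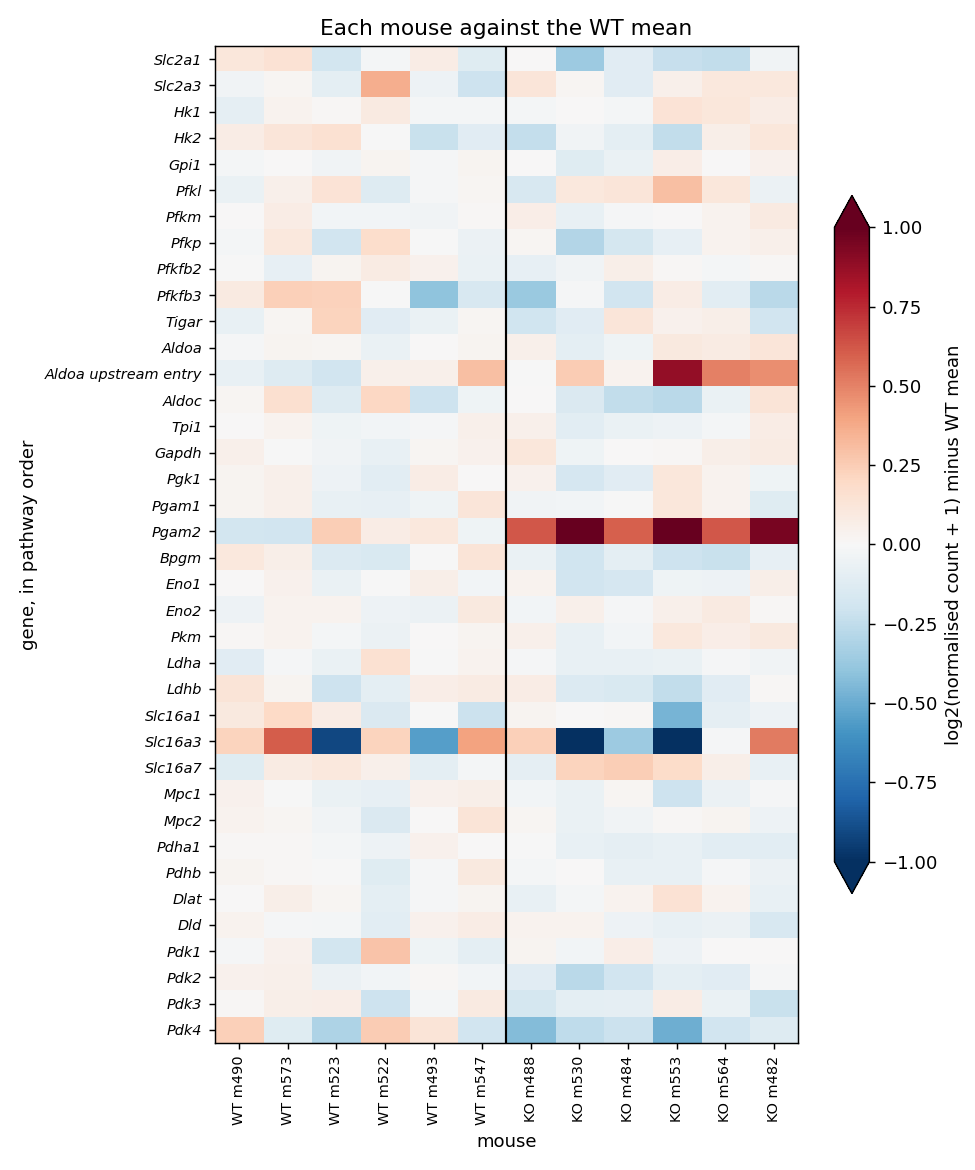
Difference of each mouse from the WT mean on the log2(normalised count + 1) scale for the 38 rows in pathway order, WT mice left and KO mice right of the line; colours saturate at 1 in either direction. Pgam2 is positive in all 6 KO mice, and Slc16a3 varies within both genotypes.

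Levels per kilobase in WT mice spanned 1379-fold, from Aldoa to Slc16a3. Neighbours in this order often could not be separated: in 22 of the 37 neighbouring pairs the ranges over the 6 WT mice overlapped. Aldoa was separated from Aldoc, Ldhb from Pfkm and Hk1 from Pgam1, whereas Aldoc, Pkm, Eno2, Tpi1 and Ldhb formed a run of overlapping levels between 4442 and 5540 normalised reads per kilobase. Exon lengths were the union over all annotated transcripts, which lowers the value of genes with long rarely used exons. All members together took between 0.925% and 1.04% of the reads on genes.

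**Figure D5:**
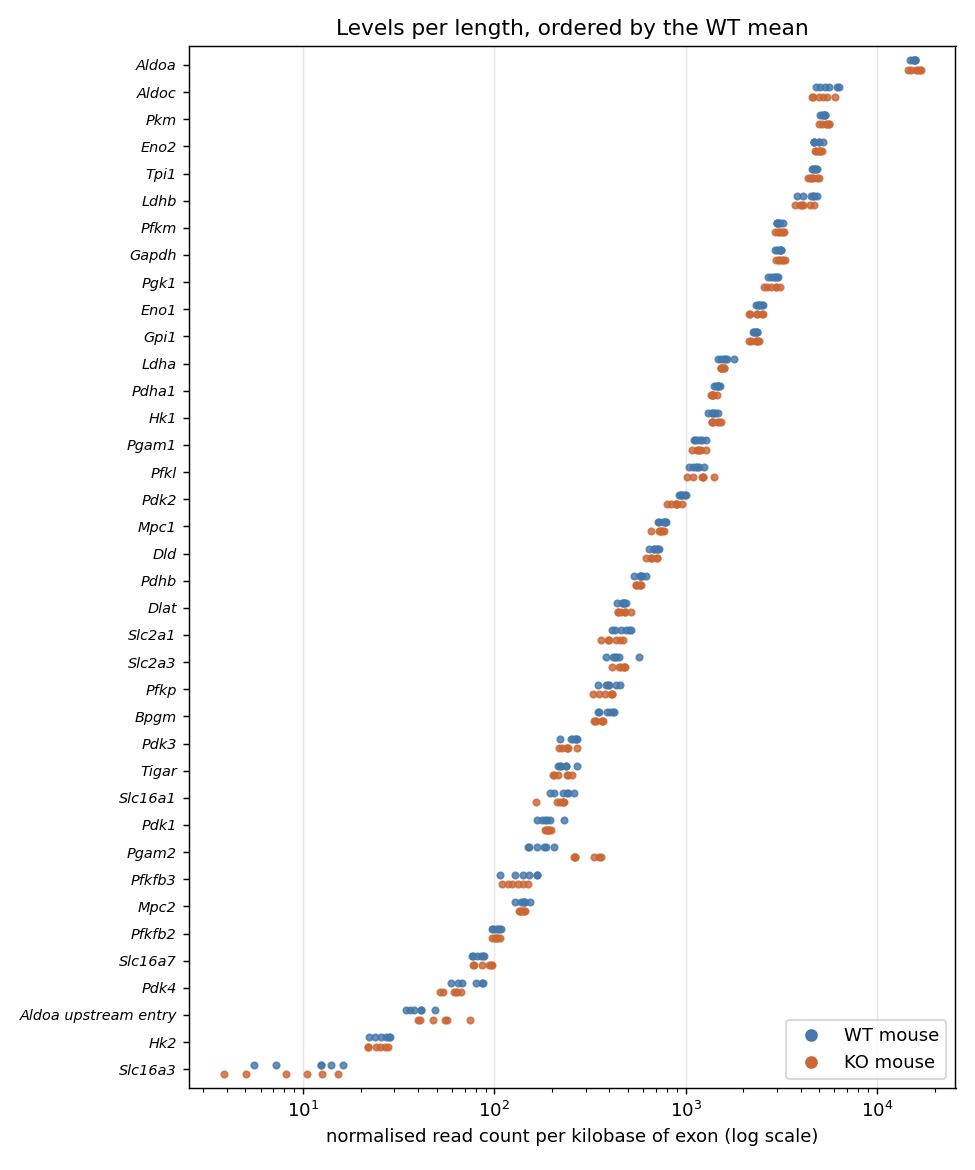
Normalised read count per kilobase of exon (log scale) of each of the 38 rows in each mouse, ordered by the WT mean, with blue points for WT and orange points for KO mice. Aldoa is highest at 15576 in WT and Slc16a3 lowest at 11.3, and Pgam2 is the row in which the colours separate.

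Some members resemble a transcribed or processed copy elsewhere in the genome, where reads can be shared or lost in counting. Of the stretches of 75 bases in the Pgam2 transcripts, 0% occurred in transcripts of any other gene in GENCODE M21. The share was 52.8% for Pgk1, 34.9% for Pgam1, 23.0% for Eno1 and 22.6% for Gapdh. It was 21.3% for Mpc1, 17.8% for Pkm, 16.2% for Pfkfb2, 12.6% for Ldhb, 10.8% for Gpi1 and 10.6% for Pdha1, and lower in the remaining members. Counts of members with shared stretches are uncertain to the degree that reads were assigned to the other genes.

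Within a genotype, Pgam2 did not follow the other members closely. Deviations from the genotype means over the 12 mice correlated most with those of the minor Aldoa entry (r = 0.37), Pfkfb2 (0.35) and Pfkl (0.35), and most negatively with those of Slc16a3 (−0.67), Slc2a1 (−0.58) and Mpc1 (−0.56). The closest pairs among all members were Aldoa with Pkm (r = 0.96), Dlat with Pdk3 (0.93) and Pfkm with Tpi1 (0.91). These values describe 12 libraries that share dissection, depth and composition and carry no test.

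Sex was compared across the same mice with genotype in the fit. None of the 38 rows passed between females and males (0 by limma, 0 by edgeR, 0 at an unadjusted p under 0.05), where 0.0549% of all genes passed and 6.45% had an unadjusted p under 0.05. The lowest adjusted p among the members was 0.785. For a genotype difference that depends on sex, 0 of the 38 rows passed by limma or edgeR, against 0% of all tested genes. The 2 members with an unadjusted p under 0.05, in comparison with 3.45% of all genes, were Dld, with an interaction of 0.21 on the log2 scale (SE 0.07), and Pfkfb3, with −0.48 (SE 0.17).

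Related lists were read for comparison. Of 25 other glycolysis genes, 21 were tested and 0 passed by limma or edgeR, 1 by DESeq2 and 2 at an unadjusted p under 0.05. Of the 21, 13 had log2 fold changes below 0. Slc2a5, the 1 by DESeq2, gave −0.43 (adjusted p = 0.0767 by limma and 0.0132 by DESeq2). Slc2a4 had 5.54 to 34.0 normalised reads in WT and 13.3 to 41.3 in KO mice, a log2 fold change of 0.79 (SE 0.39, adjusted p = 0.397 by limma). Eno3 gave 0.06. Of 12 pentose phosphate, 10 NADH shuttle and 18 citrate cycle genes, likewise 0 passed by limma or edgeR, with 2, 1 and 1 by DESeq2 and 2, 2 and 3 at an unadjusted p under 0.05. Of all 18221 tested genes, DESeq2 called 616. An unadjusted p under 0.05 was found in 7.6% with lower and 5.92% with higher values in KO. Of 17 other genes of pyruvate dehydrogenase and gluconeogenesis, 13 were tested and 2 passed by limma, both lower in KO. Of all tested genes, 0.9% passed by limma in either direction and 0.741% with lower values in KO. The list was chosen with earlier results of these data known. G6pc3, the ubiquitous glucose 6-phosphatase that releases free glucose, had 893 to 1058 normalised reads in WT and 618 to 818 in KO mice without overlap, and fell by 0.43 on the log2 scale (SE 0.07, adjusted p = 0.00764 by limma). Pcx, for the pyruvate carboxylase that replenishes the citrate cycle in astrocytes, had 2046 to 2322 in WT and 1756 to 2045 in KO mice, and fell by 0.23 (SE 0.04, adjusted p = 0.0278). Without WT m490 and WT m493 the log2 fold changes were −0.41 and −0.22 and the adjusted p 0.0597 and 0.131. Pcx also missed the threshold, with an adjusted p from 0.0659 to 0.0761, when WT m490, WT m547, WT m573, KO m484, KO m530, KO m553 or KO m564 was left out singly, and with sex as a covariate (adjusted p = 0.0707). Astrocyte markers summed to 91088 to 121025 in WT and 97521 to 108279 in KO mice, with 0 of 8 past the threshold by limma or edgeR, 1 by DESeq2 and 1 at an unadjusted p under 0.05. Most of the sum was Slc1a2 (means of 68065 and 68746). The median log2 fold change was −0.02, with 5 of 8 lower in KO. S100b gave −0.32 (adjusted p = 0.0851 by limma and 0.0129 by DESeq2), Gjb6 −0.25 and Aqp4 −0.20, while the others lay between −0.04 and 0.02. The part of astrocytes in the Pcx result was not tested.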

How the data were processed

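RNA from the hippocampi of 6 WT and 6 KO mice was sequenced by the authors and the reads were aligned with the Basespace RNA-Seq app and STAR (STAR 2.5.0a, edgeR 3.22.2 and mm10 per the submitters' processing notes). The signal values deposited by the authors are read counts divided by 1 size factor per library. The paper's methods name DESeq2 and the submitters' processing notes name edgeR, so the tool behind the size factors is not certain. The counter, annotation release and strandedness are not given in the sources used here. Dividing by the smallest step of a library returned whole reads for 100% of values in 12 of 12 libraries (tolerance 0.0001).

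For the genotype comparison, log2 values of the normalised count, with a pseudocount of 1, were fitted by limma 3.58.1 (R 4.3.3, two-sided) with a trend and genotype alone, for genes whose mean reached 10, adjusted by Benjamini-Hochberg over all genes at 0.05. Sex and its interaction with genotype were fitted likewise. Alternatives were pseudocounts of 0.5 and 5, no limit or a mean of at least 50, quantile and TMM scaling, sex as a covariate, no trend, edgeR 4.0.16 and DESeq2 1.42.0 on recovered reads, a threshold of 0.1, each mouse left out, and, added after the values were seen, both choroid plexus libraries left out. On simulated counts limma recovered 200 of 200 genes changed 2-fold and called 9 others among 18253. The simulation gave every gene the same dispersion, held no differences in tissue composition, and changed only genes with a mean of at least 50 reads. Smaller changes were not simulated, so the recovery of small differences is unknown. Exon lengths and coordinates were of GENCODE M21, promoters of RefSeq. The members and lists were chosen with earlier results of these data known. All members were named, with Usf1, genes within 100 kb of Pgam2, listed genes past the threshold, skeletal muscle genes, and the 3 highest and 3 lowest correlated members. The closest pairs, isoenzyme shares, pairs of neighbouring levels and single genes named from the other glycolysis and astrocyte lists were added after the values were seen. One result named by this rule is left out here.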

Additional observations from a re-analysis of the deposited data

Results flagged for a closer look

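Single mice that stood apart from the other 5 of their genotype were searched with Dixon's criterion in the 76 groups formed by 38 rows and 2 genotypes. There were 4, and chance gives about 1 in 20 groups. Slc2a3, the neuronal glucose transporter, had 4135 normalised reads in WT m522 and 2787 to 3265 in the other WT mice. Tigar, the fructose bisphosphatase that opposes glycolysis, had 993 in WT m523 and 787 to 863 in the others. Slc16a1, a lactate carrier, had 729 in KO m553 and 946 to 1029 in the others. Pdha1, the catalytic subunit of pyruvate dehydrogenase, had 5463 in KO m488 and 5081 to 5201 in the others.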

How the results depend on the processing

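The log2 fold change of Pgam2 lay between 0.76 and 0.86 over 23 alternatives, and its excess over Pgam1 and the median of the members moved by less than their spread between mice. The count of members past the threshold was 1, namely Pgam2, under every alternative run. Because Pgam2 was chosen on this contrast, nothing is read from that count. No other member passed between the genotypes under any alternative, and no member passed between females and males or for the interaction. Of 164 genes past the threshold between the genotypes, the count became 616 with DESeq2, 109 without the trend, 98 with sex as a covariate, 343 at a threshold of 0.1 and 59 without both choroid plexus libraries, and ran from 64 (without WT m490) to 515 (without WT m522) as each mouse was left out. It was 72 without KO m564, 85 without KO m530 or WT m547, 87 without KO m484 or WT m573, and 97 without KO m553. Of the related genes, 2 passed, but 7 with DESeq2, 1 without the trend or with sex as a covariate, 0 without both choroid plexus libraries, and 1 to 5 as each mouse was left out, with 5 without WT m522, 4 without WT m493 and 1 without any of WT m490, WT m547, WT m573, KO m484, KO m530, KO m553 and KO m564. G6pc3 passed in 22 of 23 alternatives and Pcx in 13 of 23. The causes were not tested.

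In 11 members, each with a value of at most 0.037 in either direction, the sign changed. With quantile normalisation the log2 fold changes were −0.020 for Pfkm, 0.0079 for Pfkfb2, −0.0083 for Gapdh, −0.021 for Eno2, −0.0059 for Pkm and −0.0030 for Dlat, which gave −0.0080 with sex as a covariate. Without both choroid plexus libraries they were 0.0023 for Pfkfb2, 0.0023 for Pgk1, −0.0015 for Eno2 and −0.0087 for Pdk1. Pdk1 gave −0.0041 with DESeq2, −0.0028 with TMM and −0.0062 with edgeR. With each mouse left out, values ran from −0.026 to 0.011 for Gpi1, −0.023 to 0.0085 for Pfkfb2, −0.050 to 0.0064 for Pgk1, −0.029 to 0.019 for Pgam1, −0.044 to 0.010 for Mpc2, −0.020 to 0.025 for Dlat and −0.034 to 0.060 for Pdk1. Groups of 6 mice and the uneven sexes limit what small differences can be seen, and Slc16a3, with as few as 20.6 normalised reads, is the least precise member.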
